A study of Rattus norvegicus with 6 samples.

Results

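Integrin subunits were measured in glomerular isolates of untreated male Sprague-Dawley rats, on 6 Affymetrix whole-transcript arrays. The 3 PEC-enriched arrays held RNA from the 90 µm sieve, which kept more capsulated than decapsulated glomeruli. Capsulated glomeruli keep Bowman's capsule with its parietal epithelial cells (PECs). The 3 PEC-deprived arrays held RNA from the 75 µm sieve, which kept mostly decapsulated glomeruli. No cells were cultured and no gene was altered in either group. Neither isolate is a pure cell type, since both hold podocytes, endothelial and mesangial cells of the glomerulus. By the study's counts every PEC-enriched isolate also held decapsulated glomeruli, and some PEC-deprived isolates held capsulated ones. Tubular fragments were counted in most isolates, in unequal shares. A list of 10 integrin genes of glomerular and tubular epithelium was taken, and each gene was represented by its brightest probeset annotated with 1 gene symbol. Of these, 8 were measured among 14506 genes in all, each by 1 probeset, and Itga3 and Itgav were not analysed here. Values are on the log2 scale of the array summary (RMA), on which a difference of 1 is a doubling, and they ran from 2.13 to 13.87 over all probesets. Ptpro, a phosphatase of the podocyte foot process, lay between 12.18 and 12.53 on the 6 arrays. Of the 9 measured podocyte markers, 5 were higher and 4 lower by mean in PEC-enriched isolates, with a median log2 fold change of 0.05. Tcf21, a podocyte transcription factor, had the largest change of them, 0.41, and was higher on every PEC-enriched array.

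An integrin is a pair of 1 alpha and 1 beta chain that crosses the cell membrane and ties the extracellular matrix to the actin cytoskeleton. The beta chain Itgb1 pairs with many alpha chains, among them the collagen receptors Itga1 and Itga2, the laminin receptors Itga3 and Itga6 and the fibronectin receptor Itga5. The beta chains Itgb3, Itgb6 and Itgb8 pair with Itgav and bind ligands that carry the residues arginine, glycine and aspartate (RGD). In the kidney, integrins hold podocytes, capsule cells and tubules to their basement membranes, and the Itgb6 and Itgb8 pairs activate latent TGF-beta.

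The epithelial beta chain Itgb6 had the highest difference of the 8 subunits, and Itgb3, a chain of platelets and endothelium, the lowest. In Itgb6, Itgb8, Itga1 and Itga2 the lowest PEC-enriched array exceeded the highest PEC-deprived one. Itgb3 and Itga5 lay lower on every PEC-enriched array, while in Itgb1 and Itga6 the groups overlapped. By group means 6 of the 8 subunits were higher and 2 lower in PEC-enriched isolates. Their log2 fold changes had a median of 0.21. Over all 14506 genes 44.8% were higher by mean, and the median was -0.02. Arrays of the groups did not overlap, in the higher direction, for 4 of 8 subunits and 9.68% of all genes. In the lower direction the counts were 2 of 8 subunits and 9.0% of all genes.

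Called at a limma adjusted p under 0.01, the threshold of the study's methods, were 0 of 8 subunits and 0 of 29215 probesets (0.0%). At an unadjusted p under 0.05 in limma, 4 subunits were higher, against 7.96% of all genes, and 2 were lower, against 5.65%. A Bayesian test that borrows variance from probesets of similar level, the kind of test the methods name, called 1 subunit, Itgb6. It called 0.6% of all genes as higher.

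**Figure D1:**
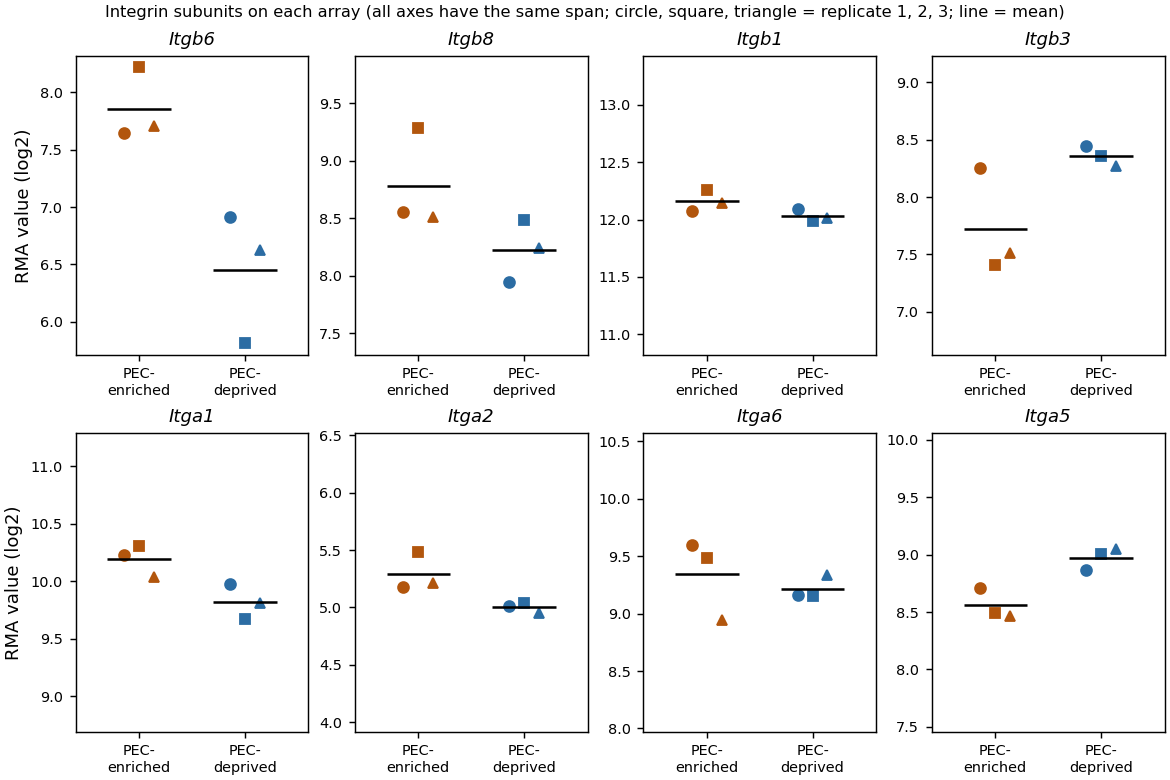
RMA values (y axis, log2) of the 8 measured integrin subunits, each point 1 array, with the replicate shown by its shape and the mean of 3 arrays by a line. Every y axis has the same span. In Itgb6, Itgb8, Itga1 and Itga2 all points of the PEC-enriched group are above those of the other group, and in Itgb3 and Itga5 below them.

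Itgb6 (probeset 10845587), found in epithelia and in pair with Itgav only, had values of 7.64, 8.22 and 7.71 on PEC-enriched replicates 1, 2 and 3. On PEC-deprived replicates 1, 2 and 3 it had 6.91, 5.81 and 6.62. The groups were apart by 0.73 at their nearest arrays, and PEC-deprived replicate 2 lay lowest. Mean values were 7.86 ± 0.314 and 6.45 ± 0.569 (SD, n = 3 arrays each). The log2 fold change of 1.41, or 2.65-fold, had a standard error of 0.276 and a 95% interval of 0.77 to 2.04 (limma adjusted p = 0.166). Only 0.234% of all genes had a higher log2 fold change. By the Bayesian test Itgb6 had an adjusted p of 0.00161, but on simulated arrays that test made more false calls than its threshold allows. The simulated arrays took each probeset's spread, estimated from few arrays, as its true spread. Their share of false calls therefore need not hold for the real arrays. This gene is among those the study selected on the same arrays, so its direction is not independent evidence. With single arrays left out its log2 fold change ran from 1.09 without PEC-deprived replicate 2 to 1.64 without PEC-deprived replicate 1.

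The promoter windows of Itgb6, Itgb8 and Itgb1 are shown because these beta chains differed in how far they stood apart between the isolates. RefSeq windows of the GRCr8 assembly, from 250 bases before to 50 bases after the annotated start, were found for 6 of the 8 subunits. The Itgb6 window is chr3:65530284-65530583 on the minus strand, the Itgb8 window chr6:146351196-146351495 on the minus strand and the Itgb1 window chr19:73602027-73602326 on the plus strand. Each is printed 5′ to 3′, with matches to the searched motifs in capitals.
Itgb6: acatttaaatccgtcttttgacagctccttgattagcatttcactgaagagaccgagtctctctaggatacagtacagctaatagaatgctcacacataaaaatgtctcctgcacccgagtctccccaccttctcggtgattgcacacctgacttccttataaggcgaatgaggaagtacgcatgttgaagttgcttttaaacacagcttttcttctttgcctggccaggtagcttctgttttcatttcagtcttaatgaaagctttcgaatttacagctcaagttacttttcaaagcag
Itgb8: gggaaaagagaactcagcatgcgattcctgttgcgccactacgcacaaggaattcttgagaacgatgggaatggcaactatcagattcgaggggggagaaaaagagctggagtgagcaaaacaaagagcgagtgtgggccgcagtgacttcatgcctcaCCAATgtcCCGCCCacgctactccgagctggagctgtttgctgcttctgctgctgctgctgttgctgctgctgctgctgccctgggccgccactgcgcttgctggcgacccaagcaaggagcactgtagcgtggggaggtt
Itgb1: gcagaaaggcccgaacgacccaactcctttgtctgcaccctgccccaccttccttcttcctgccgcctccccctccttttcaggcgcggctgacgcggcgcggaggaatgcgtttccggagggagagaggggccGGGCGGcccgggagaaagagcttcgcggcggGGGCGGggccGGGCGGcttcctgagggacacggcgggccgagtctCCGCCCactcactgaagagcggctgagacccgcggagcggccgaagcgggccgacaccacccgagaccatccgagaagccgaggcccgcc

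Searched on both strands were the TATA box (TATAAA), the GC box (GGGCGG), the AP-1 site (TGANTCA), an HNF1 core (GTTAAT), the CCAAT box (CCAAT) and the E-box (CACGTG). Itgb6 held no match to any of them. Itgb8 held 1 GC box and 1 CCAAT box, which begin at -83 and -91 from the start. Itgb1 held 4 GC boxes, which begin at -116, -85, -75 and -40. None of these matches overlaps another. Of 33469 rat promoter windows of this length 33.1% hold a GC box and 37.5% a CCAAT box, 14.2% a TATA box, 7.33% an AP-1 site, 7.45% an HNF1 core and 6.42% an E-box. The share of G and C was 41.7% in the Itgb6 window, 57.3% in that of Itgb8 and 71.7% in that of Itgb1, against a median of 51.7% over all windows. Among all windows 15.6% had a lower share than Itgb6 and 93.7% a lower share than Itgb1. The windows held 7 CG pairs in Itgb6, 14 in Itgb8 and 35 in Itgb1.

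Itgb8 (probeset 10892835), another partner of Itgav, had values of 8.55, 9.28 and 8.51 on PEC-enriched replicates 1, 2 and 3 and 7.94, 8.48 and 8.24 on PEC-deprived replicates 1, 2 and 3. The groups were nearly in contact, with a gap of 0.0304, and PEC-enriched replicate 2 lay well above the rest. Its log2 fold change was 0.56 (standard error 0.223, 95% interval 0.05 to 1.07, limma adjusted p = 0.427). Without PEC-enriched replicate 2 it was 0.31 (limma adjusted p = 0.82).

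Itgb3 (probeset 10940577), which pairs with Itgav in endothelium and with another alpha chain in platelets, was lower in PEC-enriched isolates. It had values of 8.25, 7.41 and 7.51 on the PEC-enriched arrays in replicate order and 8.44, 8.35 and 8.27 on the PEC-deprived arrays. PEC-enriched replicate 1 lay 0.0222 below the nearest PEC-deprived array, far above the other two PEC-enriched arrays. The means were 7.72 ± 0.46 and 8.36 ± 0.0848 (SD, n = 3 arrays each). They differed by -0.63, with a standard error of 0.206 and a 95% interval of -1.11 to -0.16 (limma adjusted p = 0.334). Of all genes, 0.386% had a lower log2 fold change. Without PEC-enriched replicate 1 it was -0.90 (limma adjusted p = 0.0712) and without PEC-enriched replicate 2 it was -0.48 (limma adjusted p = 0.777).

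Itgb1 (probeset 10812021), the shared beta chain of the collagen, laminin and fibronectin receptors, was nearly level. It had 12.07, 12.26 and 12.14 on the PEC-enriched arrays and 12.09, 11.99 and 12.01 on the PEC-deprived arrays, in replicate order. PEC-deprived replicate 1 lay among the PEC-enriched arrays. The log2 fold change was 0.13 (standard error 0.0926, limma adjusted p = 0.745), and the 95% interval from -0.09 to 0.34 includes differences of either sign. Without PEC-enriched replicate 2 it was 0.08.

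Whether Itgb6 stood apart from the other beta chains was compared on each array, as its log2 value minus that of the other chain, in 3 comparisons. Such a difference shows unequal change between the isolates and is not a ratio of transcript levels. Against Itgb3 the shift was 2.04, and the 3 PEC-enriched arrays did not overlap the PEC-deprived arrays (exact permutation test, two-sided, p = 0.1, Benjamini-Hochberg adjusted p = 0.15). Against Itgb1 it was 1.28 (exact p = 0.1, adjusted p = 0.15), also with no overlap. Against Itgb8 it was 0.85 (exact p = 0.2, adjusted p = 0.2), and PEC-deprived replicate 1 lay among the PEC-enriched arrays. Without PEC-deprived replicate 2 the shift against Itgb8 was 0.40. The smallest p that 3 arrays against 3 allow is 0.1, so no comparison of this kind could pass 0.05. Itgb6 had the highest and Itgb3 the lowest log2 fold change of the subunits, and the study had selected Itgb6 on these arrays. These shifts are therefore not independent evidence of a difference between the chains.

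**Figure D2:**
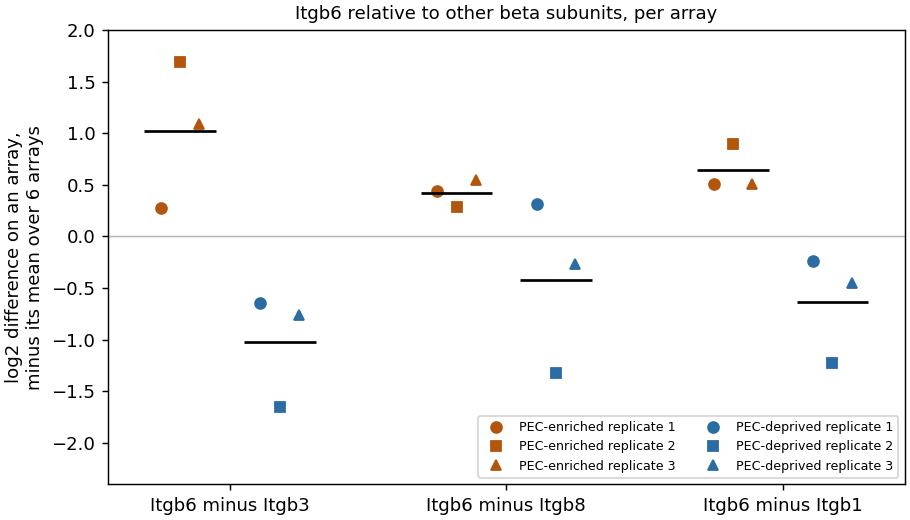
Itgb6 minus each other beta chain on each array (y axis, log2 difference centred on its mean over 6 arrays), with PEC-enriched arrays in orange, PEC-deprived arrays in blue and lines at the group means. The groups are apart by 2.04 for Itgb3 and 1.28 for Itgb1 without overlap, and by 0.85 with overlap for Itgb8.

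Among the alpha chains of the set, the collagen receptors Itga1 and Itga2 were higher in PEC-enriched isolates. Itga10 and Itga11, collagen receptors outside the set, were lower by mean, with overlapping groups. Their log2 fold changes were -0.16 (limma adjusted p = 0.732) and -0.12 (limma adjusted p = 0.83). Itga1 (probeset 10821450), known from mesangial cells and other cells that bind type IV collagen, had values of 10.23, 10.31 and 10.03 on the PEC-enriched arrays and 9.97, 9.67 and 9.81 on the PEC-deprived arrays. The nearest arrays of the groups were 0.0624 apart. Its log2 fold change was 0.37 (standard error 0.116, 95% interval 0.10 to 0.64, limma adjusted p = 0.322). Itga2 (probeset 10821415) is the other collagen receptor of the set. It had 5.18, 5.49 and 5.22 on the PEC-enriched arrays and 5.01, 5.04 and 4.95 on the PEC-deprived arrays. PEC-enriched replicate 2 was the highest of them, and the log2 fold change was 0.29 (standard error 0.108, 95% interval 0.05 to 0.54, limma adjusted p = 0.383). Its mean lay below the array medians, and signal over background is unknown here.

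The fibronectin receptor Itga5 (probeset 10907689) was lower, with 8.71, 8.50 and 8.47 on the PEC-enriched arrays and 8.86, 9.01 and 9.05 on the PEC-deprived arrays. PEC-enriched replicate 1 lay 0.15 below the nearest PEC-deprived array, nearer to it than to the other PEC-enriched arrays. The log2 fold change was -0.41 (standard error 0.105, 95% interval -0.66 to -0.17, limma adjusted p = 0.231), and 2.60% of all genes had a lower one. Itga6 (probeset 10836849), a laminin receptor that pairs with Itgb1 or Itgb4, had 9.60, 9.48 and 8.94 on the PEC-enriched arrays and 9.16, 9.15 and 9.34 on the PEC-deprived arrays. PEC-enriched replicate 3 lay below all PEC-deprived arrays, so no common direction was seen. Its log2 fold change was 0.12 (standard error 0.17, 95% interval -0.27 to 0.51, limma adjusted p = 0.892). Without PEC-enriched replicate 1 it was -0.0055, without PEC-enriched replicate 2 it was 0.05, and without PEC-enriched replicate 3 it was 0.32 (limma adjusted p = 0.417).

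**Figure D3:**
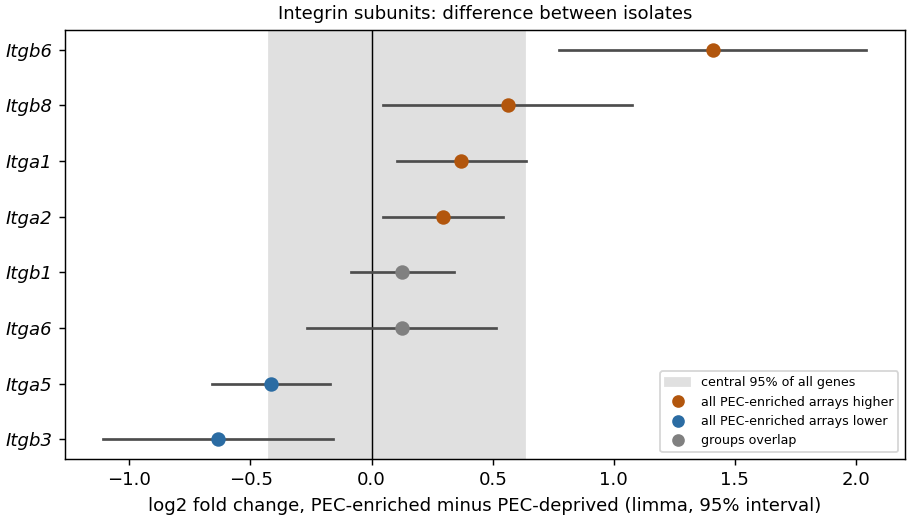
Log2 fold change of each integrin subunit (x axis, PEC-enriched minus PEC-deprived) with its 95% limma interval as a line, and a grey band for the central 95% of all genes, from -0.42 to 0.63. Itgb6 at 1.41 and Itgb3 at -0.63 lie outside the band, and Itga5 at -0.41 lies at its edge.

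Markers of other cell types also differed between the isolates by mean. In bulk RNA fewer cells of a type and less RNA per cell cannot be told apart. Each list is given as the mean of its genes on an array, relative to their means over the 6 arrays. Of the 13 PEC markers, some of which the study selected on these arrays, 12 were higher and 1 lower. They ran from 0.18 to 0.63 on the PEC-enriched arrays and from -0.59 to -0.17 on the PEC-deprived arrays. The study also saw the proteins of Cdh6 and Pax8 in tubules, so this list is not particular to PECs. The 12 proximal tubule markers were all higher in mean, at 0.20 to 0.83 and -1.05 to 0.17. The 8 thick ascending limb markers were also all higher, at 0.67 to 1.20 and -1.38 to -0.21. Of 14 distal and collecting duct markers 11 were higher, at 0.22 to 0.52 and -0.49 to 0.0042. No marker had a missing value, and an array signal has no true 0.

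On the same scale Itgb6 was at 0.49, 1.07 and 0.56 on PEC-enriched replicates 1, 2 and 3 and at -0.24, -1.34 and -0.53 on PEC-deprived replicates 1, 2 and 3. PEC-deprived replicate 1 was the highest of its group in Itgb6, PEC markers, proximal tubule markers and thick ascending limb markers, and PEC-deprived replicate 2 the lowest in each. In the PEC-enriched group Itgb6, the PEC markers (0.63) and the proximal tubule markers (0.83) were all highest on replicate 2. Itgb6 and the PEC markers (0.18) were lowest there on replicate 1 and the proximal tubule markers (0.20) on replicate 3, while the thick ascending limb markers were highest on replicate 1 (1.20). The part of PEC and tubule RNA in the Itgb6 difference was not tested. The distal and collecting duct list was also highest on replicate 1 in the PEC-deprived group, with replicates 2 and 3 at -0.4894 and -0.4905. In the PEC-enriched group that list was highest on replicate 1 (0.52). Itgb8 did not keep the order of Itgb6 in the PEC-deprived group, with replicate 2 highest at -0.02 and replicate 1 lowest at -0.56. On PEC-enriched replicates 1, 2 and 3 Itgb8 was at 0.05, 0.78 and 0.01, ranked as in the proximal tubule list.

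Endothelial and leukocyte markers were, like Itgb3 and Itga5, lower in PEC-enriched isolates by their means. All 12 endothelial markers were lower by mean (median log2 fold change -0.46), and so were all 11 measured leukocyte markers (median -0.37). The endothelial list stood at 0.11, -0.40 and -0.39 on PEC-enriched replicates 1, 2 and 3 and at 0.18 to 0.26 on the PEC-deprived arrays. The leukocyte list stood at 0.14, -0.46 and -0.23, and at 0.07 to 0.28, so its groups overlapped. Itgb3 was at 0.21, -0.63 and -0.53 on the PEC-enriched arrays and at 0.23 to 0.40 on the PEC-deprived arrays, so PEC-enriched replicate 1 lay near the PEC-deprived arrays in the gene and in both lists. Itga5 was at -0.05, -0.27 and -0.30, and at 0.10 to 0.28. The part of these cells in the Itgb3 and Itga5 differences was not tested. The 10 measured mesangial and smooth muscle markers split into 6 higher and 4 lower (median 0.08), and ran from -0.10 to 0.19 and from -0.08 to -0.01.

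**Figure D4:**
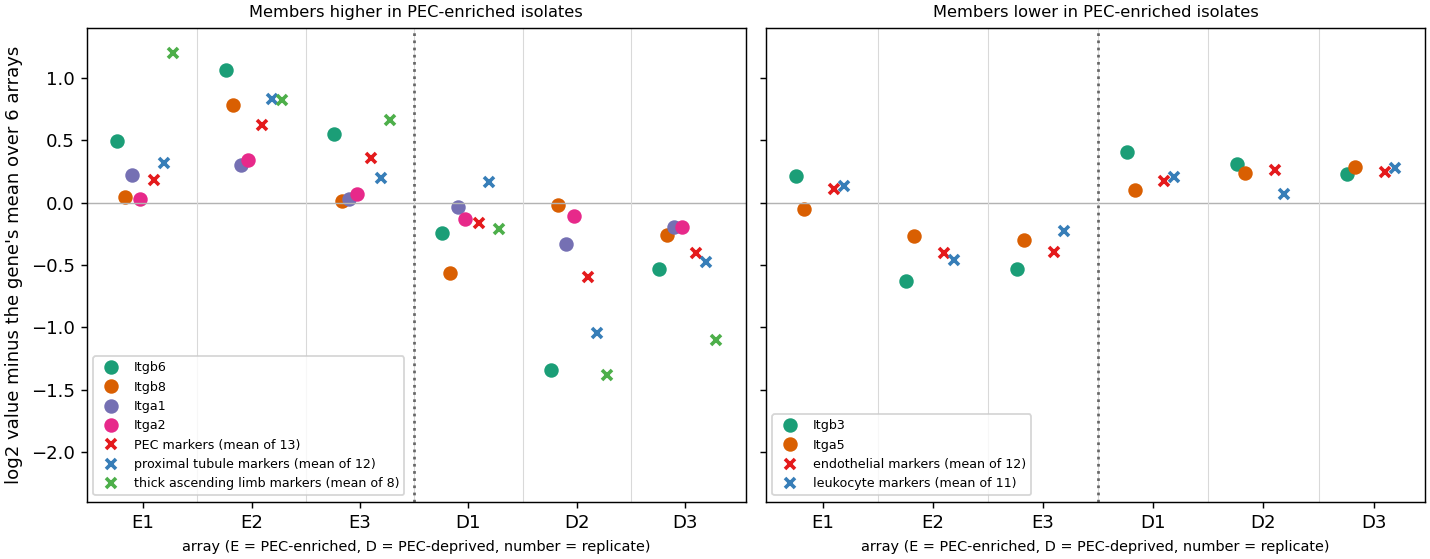
Log2 value minus the mean over 6 arrays (y axis) on each array (x axis), with circles for integrin subunits and crosses for the mean of a marker list. Itgb6 and the PEC, proximal tubule and thick ascending limb lists are lowest on PEC-deprived replicate 2, and Itgb3 and the endothelial list are high on PEC-enriched replicate 1, at 0.21 and 0.11.

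Integrin chains outside the set were mostly lower. Of 12 measured, 2 were higher and 10 lower by mean (median -0.22), and 0 passed the adjusted threshold. Among the lower ones were chains of leukocytes, whose markers were also lower by mean, and chains with means below the array medians. The part of leukocytes in these differences was not tested. Itgb4, which pairs with Itga6 in hemidesmosomes, had values of 6.75, 6.58 and 6.84 on the PEC-enriched arrays and 6.37, 6.45 and 6.54 on the PEC-deprived arrays, and a log2 fold change of 0.27 (limma adjusted p = 0.408) with no overlap. Itgb5, one more partner of Itgav, stood at 0.12 (adjusted p = 0.886). The leukocyte chains Itgb2 and Itgal were at -0.56 (adjusted p = 0.382) and -0.51 (adjusted p = 0.517), with overlapping groups in both.

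Ligands of these receptors showed no common shift. Of 7 measured laminin chains 3 were higher and 4 lower by mean (median -0.01). Lama1, an alpha chain of early and tubular basement membranes, had 6.70, 6.87 and 6.80 on the PEC-enriched arrays and 6.41, 6.09 and 6.16 on the PEC-deprived arrays. Its log2 fold change was 0.57 (standard error 0.111, limma adjusted p = 0.166). Lamc3, another gamma chain, was at 0.19 (adjusted p = 0.524), with no overlap. Lamc1, the gamma chain of most laminins, was at -0.21 (adjusted p = 0.689), and Lamb2, the beta chain of the mature glomerular basement membrane, at -0.06 (adjusted p = 0.903). Of 6 measured collagen chains 3 were higher and 3 lower by mean (median -0.02), and the groups overlapped in all 6. Col4a4 and Col4a3, chains of the mature glomerular basement membrane, were at 0.18 (adjusted p = 0.759) and 0.13 (adjusted p = 0.877). The type I collagen chains Col1a2 and Col1a1 were at -0.22 (adjusted p = 0.711) and -0.09 (adjusted p = 0.964).

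Ligands known or thought to bind through RGD comprised 12 measured genes, 6 higher and 6 lower by mean (median -0.02). Spp1, which encodes osteopontin, a ligand of the Itgav pairs that tubules secrete, had 10.93, 11.89 and 11.63 on the PEC-enriched arrays and 10.004, 8.34 and 8.51 on the PEC-deprived arrays. It had the highest log2 fold change of the ligands, 2.53 (standard error 0.431, limma adjusted p = 0.159), and was the one gene of this list that the Bayesian test called (adjusted p = 7.1e-05). Thbs1, which encodes thrombospondin 1, was at 0.54 (adjusted p = 0.216).

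For TGF-beta activation, 4 of 9 measured genes were higher and 5 lower by mean (median -0.10). The latency peptides of Tgfb1 and Tgfb3 are the ligands through which the Itgb6 pair acts on TGF-beta. Tgfb3 had 6.90, 6.89 and 6.51 on the PEC-enriched arrays and 6.97, 7.54 and 7.35 on the PEC-deprived arrays, all lower on the former, with a log2 fold change of -0.52 (limma adjusted p = 0.333). Tgfb1 was at -0.31 (adjusted p = 0.585), with overlap. The latent TGF-beta binding proteins were split. Ltbp1 was lower on every PEC-enriched array, at -0.57 (adjusted p = 0.21), while Ltbp4 and Ltbp2 were higher on every one, at 0.58 (adjusted p = 0.338) and 0.42 (adjusted p = 0.322).

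Inside the cell, integrin tails are bound by talin, kindlins and a complex of kinase, PINCH and parvin proteins. Of 20 measured adaptors 9 were higher and 11 lower by mean (median -0.05), and 0 passed. Fermt3, the kindlin of blood cells, was at -0.52 (adjusted p = 0.355) and Parvb, beta-parvin, at -0.48 (adjusted p = 0.241), each lower on every PEC-enriched array. Actn1, an actin crosslinker, was at 0.44 (adjusted p = 0.367) with overlap, and the kinase Src at 0.39 (adjusted p = 0.373) without. Of 12 tetraspanins and other lateral partners 9 were higher and 3 lower by mean (median 0.12). Cd82 and Cd63, tetraspanins that associate with integrins, were at 0.37 (adjusted p = 0.322) and 0.36 (adjusted p = 0.367). Plaur, the urokinase receptor that signals through Itgb3, was at -0.41 (adjusted p = 0.228), and Cav1, caveolin of endothelial and other membranes, at -0.36 (adjusted p = 0.322). In these 4 genes no array of one group lay among those of the other.

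**Figure D5:**
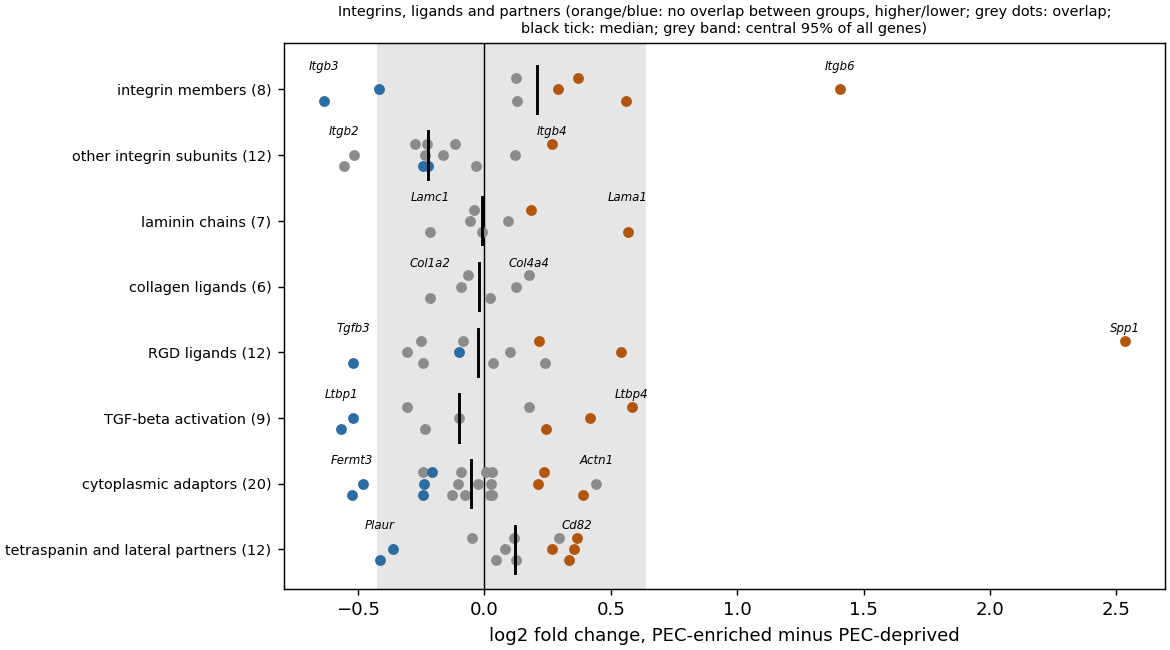
Log2 fold change (x axis) of each measured gene in the integrin set and 7 lists of ligands and partners, each dot 1 gene, with the number of genes in parentheses and the median as a black tick. Spp1 at 2.53 and Itgb6 at 1.41 lie far above all other genes shown, and medians run from -0.22 for the other integrin subunits to 0.21 for the integrin set.

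The genes with the pattern nearest to Itgb6 over the 6 arrays were sought by the root mean square difference of log2 values, each gene centred on its mean. They were Aadat (0.0761), a mitochondrial aminotransferase, Fam20c (0.112), a kinase of secreted proteins, Kif12 (0.116), a kinesin, and Pdzk1ip1 (0.123), a small membrane protein. Their log2 fold changes were 1.39, 1.37, 1.35 and 1.24. Nearest to Itgb3 were Atp2a3 (0.0917), a calcium pump, Tor4a (0.0942), Tmem26 (0.0965) and Ptprc (0.105), the common leukocyte antigen. Their log2 fold changes were -0.63, -0.60, -0.52 and -0.46. The 6 points share their arrays, so this likeness is a description of them and carries no test.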

How the data were processed

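RNA of 3 PEC-enriched and 3 PEC-deprived isolates was measured, with 1 array for each, grouped by the sample titles. The authors adjusted background, quantile normalized and summarized with RMA, and the deposited values were read as log2 values, the scale RMA writes. For the software, its version and the probesets' genome build, the entry is: not given in the sources used here. Gene coordinates are therefore omitted except for RefSeq promoter windows. RNA came from individual rats, and the study's methods give 3 animals. Whether both isolates came from the same rats is not stated, so arrays of the groups may not be independent. The limma and Bayesian p-values set each difference against the spread between these arrays, combined with the spread of other probesets. The number of arrays limits precision.

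Differences, PEC-enriched minus PEC-deprived, were tested two-sided, without covariates, by the eBayes fit of limma 3.58.1 (R 4.3.3) over all 29215 probesets with Benjamini-Hochberg adjustment, and checked on simulated data. The annotation, of 2016, gave 15310 probesets 1 symbol, 323 several and 13582 none, and symbols were updated through Entrez IDs. The Bayesian test used a local variance prior of weight 10 on 22 degrees of freedom. Intervals are limma intervals, not adjusted for the number of genes. Correlations between arrays lay between 0.982 and 0.994, and no arrays were identical. Named genes were all measured subunits, the 2 highest and 2 lowest genes of each ligand or partner list, and the 4 nearest patterns to the highest and the lowest subunit. Of the podocyte markers, the 2 with the largest absolute log2 fold change were named. Itga10 and Itga11 were named as collagen receptors outside the set, and Cdh6 and Pax8 for the study's staining. The subunits and lists were chosen with earlier results of these data known. Figures were drawn with matplotlib 3.10.9.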

Additional observations from a re-analysis of the deposited data

How the results depend on the processing

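The count of called subunits stayed at 0 under cyclic loess, median centring, an intensity trend, a replicate block, probesets averaged per gene, only probesets above the median level, an adjusted p under 0.05, and each array left out. By the Bayesian test it was 1 (Itgb6, at 1.41, adjusted p = 0.00161), with 119 probesets called in place of 0. Without single arrays, 0 to 1 probesets were called, the 1 without PEC-deprived replicate 1 being none of the subunits. Whether same-numbered arrays share a rat is not stated. Their deviations from the group means correlated at -0.0287, 0.0519 and 0.1, and those of differently numbered arrays at -0.135 to 0.083. With 3 arrays per group such values cannot show whether arrays were paired. The main test did not treat them as pairs, since the study's methods name no pairing. The replicate block changed no call (Itgb6 at 1.41, limma adjusted p = 0.35). Without single arrays, 5 to 6 subunits had a higher mean and their median ran from 0.14 without PEC-enriched replicate 2 to 0.33 without PEC-enriched replicate 3. With only probesets above the median level it was 0.13. Itga6 reversed, from 0.12 to -0.0055, without PEC-enriched replicate 1, and ran to 0.32. The other subunits kept their direction under every alternative tried. The shift of Itgb6 against Itgb8 ran from 0.40 to 1.22 without single arrays, and with cyclic loess its groups no longer overlapped (0.84, exact permutation p = 0.1). Non-overlap, recounted after the data were seen, held for 6 of 8 subunits with cyclic loess, when 19.9% of all genes did not overlap, and for 6 to 7 without single arrays, when 25.4% to 34.1% of all genes did not overlap. Itga2 lay below the median level and has no value with only probesets above it, where 5 subunits were higher. The cause of these changes was not tested, and signal over background is unknown.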
